A study of Rattus norvegicus with 33 samples.

Results

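The expression of 9 tight junction genes was followed through the development of the rat mammary gland: the claudin genes Cldn1, Cldn3, Cldn4, Cldn7 and Cldn8, the occludin gene Ocln, the tricellulin gene Marveld2, and the zonula occludens genes Tjp1 (ZO-1) and Tjp3 (ZO-3). They were taken by symbol from the platform annotation, out of 18166 genes with a probe set of 1 symbol, and each was measured by 1 probe set. All 9 passed the filter on low values (above 7.645 on the deposited log2 scale in at least 3 arrays). The data are 33 whole-transcript arrays of total RNA from the caudal left and right mammary glands of female Sprague-Dawley rats. All animals were vehicle controls of a chemical exposure study and received olive oil by gavage. The groups were pre-pubertal at postnatal day 21 (10 arrays), peri-pubertal at day 42 (5 arrays), pubertal at day 63 (5 arrays), lactation at lactation day 28, which was postnatal day 146 (3 arrays), and nulliparous and parous adults at day 181 (5 arrays each). The lactation group is labelled as the end of lactation. The labels give 3 batches. Batch 1 (18 arrays) held every stage but lactation, batch 2 (11 arrays) held the 3 youngest stages and lactation, and batch 3 (4 arrays) held adult glands that were described as fattier and were extracted with another RNA kit.

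Tight junctions seal the space between neighbouring epithelial cells. Claudins form the strands and set which ions pass, occludin lies along the same strands, tricellulin closes the corners where cells meet, and the ZO proteins tie the strands to the actin cytoskeleton. In the mammary gland the junctions between luminal cells tighten around birth of the litter, keep milk apart from the blood during lactation, and become leaky once milk removal stops. Because whole glands were measured, fewer cells of a type and less RNA per cell cannot be told apart.

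The glands carried the markers of mammary epithelium and stroma. The luminal keratin gene Krt18 averaged 8.42 ± 0.72 (SD, n = 10) at day 21, 9.88 ± 0.27 (SD, n = 5) at day 42 and 11.16 ± 0.59 (SD, n = 3) in lactation, and the whey protein gene Wap was at 6.39 ± 0.16 (SD, n = 10), 7.15 ± 0.60 (SD, n = 5) and 13.85 ± 0.16 (SD, n = 3). The mean over 13 luminal genes ranged from 6.52 to 9.40 at day 21 and from 9.20 to 10.72 at all later stages. Lactation arrays 1, 2 and 3 differed in other tissue: the skeletal muscle list mean was 8.10, 6.63 and 9.46, and the epidermis list mean was 6.98, 5.92 and 6.13.

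Promoter sequence was at hand for 8 of the 9 genes (RefSeq, build GRCr8), and the 250 bases before the annotated start were searched on both strands for 3 motifs. For each gene 1 window was used, the first listed, and other starts, where annotated, were not searched. The E-box CAGGTG (or its reverse complement CACCTG), which the junction repressors of the Snail and ZEB families bind, occurred in 4 of the 8 windows, and in 15.9% of all 33469 windows of this length. The Cldn7 window held 4 such E-boxes, a number reached by 10 of the 33469 windows, and the Ocln window held 2. The Cldn3 and Tjp3 windows held 1 each, and those of Cldn1, Cldn8, Tjp1 and Marveld2 held 0. The grainyhead-like motif AACCGGTT and the STAT motif TTCNNNGAA occurred in 0 of the 8 windows, against 0.146% and 7.67% of all windows. A match is a run of letters and not a bound site. The windows of Cldn7 (chr10:55188420-55188669, plus strand), Ocln (chr2:33441199-33441448, minus strand), Cldn3 (chr12:27346548-27346797, minus strand), Cldn8 (chr11:41364331-41364580, minus strand) and Cldn1 (chr11:87926126-87926375, plus strand) are shown 5′ to 3′ with the E-box in capitals. The first 3 hold the E-box and rose at day 42, Cldn8 holds 0 and had the largest rise, and Cldn1 holds 0 and fell, so that genes that rose are shown with and without the E-box. Marveld2 also rose with 0 E-boxes in the 1 window searched.
Cldn7: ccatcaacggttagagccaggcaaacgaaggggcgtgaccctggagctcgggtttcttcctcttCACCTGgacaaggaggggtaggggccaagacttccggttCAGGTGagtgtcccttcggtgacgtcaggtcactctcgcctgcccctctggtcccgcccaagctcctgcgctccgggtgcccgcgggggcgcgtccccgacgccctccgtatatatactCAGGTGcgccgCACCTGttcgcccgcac
Ocln: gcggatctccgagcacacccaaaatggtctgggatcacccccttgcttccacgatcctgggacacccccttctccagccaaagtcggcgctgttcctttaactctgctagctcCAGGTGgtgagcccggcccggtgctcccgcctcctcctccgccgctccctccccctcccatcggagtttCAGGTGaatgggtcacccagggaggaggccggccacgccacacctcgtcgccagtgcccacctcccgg
Cldn3: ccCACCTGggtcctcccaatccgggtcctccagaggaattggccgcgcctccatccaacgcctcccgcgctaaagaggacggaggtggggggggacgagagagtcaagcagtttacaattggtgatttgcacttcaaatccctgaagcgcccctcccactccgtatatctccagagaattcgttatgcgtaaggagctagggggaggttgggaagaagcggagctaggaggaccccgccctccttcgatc
Cldn8: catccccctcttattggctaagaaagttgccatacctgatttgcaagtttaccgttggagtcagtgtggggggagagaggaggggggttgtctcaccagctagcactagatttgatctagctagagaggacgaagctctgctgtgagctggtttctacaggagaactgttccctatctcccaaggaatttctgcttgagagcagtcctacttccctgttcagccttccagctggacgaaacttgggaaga
Cldn1: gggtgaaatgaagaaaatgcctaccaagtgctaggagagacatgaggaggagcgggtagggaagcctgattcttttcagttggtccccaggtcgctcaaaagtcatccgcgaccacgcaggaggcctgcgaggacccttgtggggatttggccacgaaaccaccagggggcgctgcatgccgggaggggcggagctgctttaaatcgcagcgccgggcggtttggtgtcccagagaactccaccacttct

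**Figure D1:**
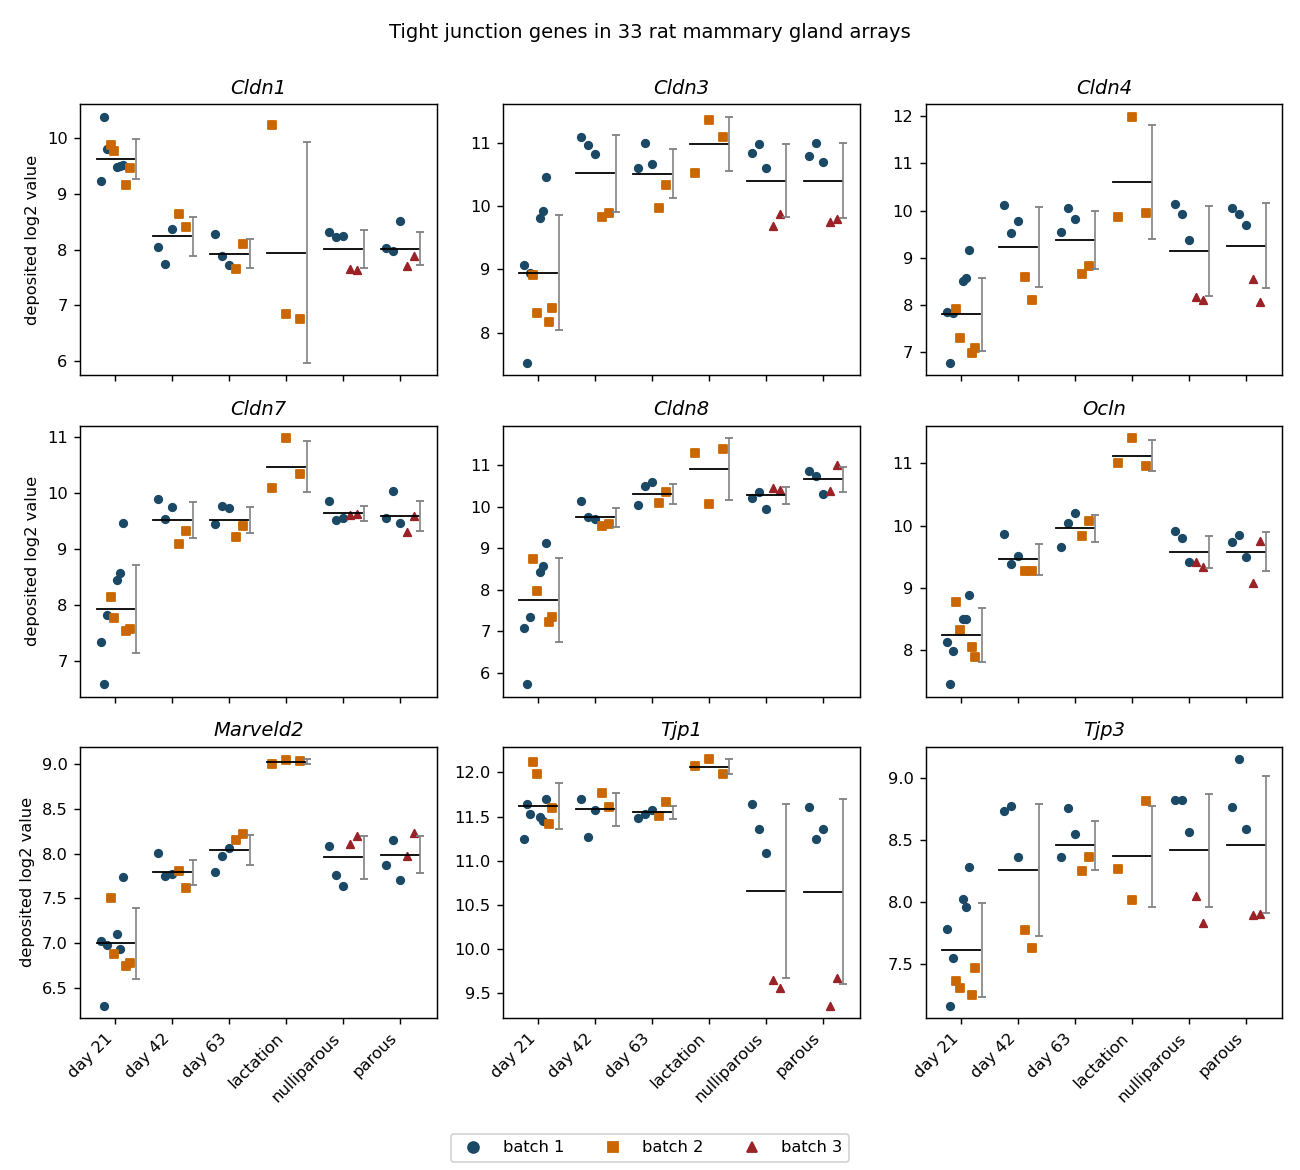
Deposited log2 value (vertical axis, own range per panel) of the 9 genes in each of the 33 arrays by stage (horizontal axis). Points are arrays, coloured and shaped by batch, the black line is the group mean and the grey bar is 1 SD. Cldn1 was highest at day 21 and in lactation array 1, most other genes were lowest at day 21 and highest in lactation, and the batch 3 arrays of Tjp1 lay apart from all others at 9.36 to 9.67.

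Between day 21 and day 42, 7 of the 9 genes rose (Cldn3, Cldn4, Cldn7, Cldn8, Ocln, Tjp3 and Marveld2), Cldn1 fell and Tjp1 was not called. The question addressed by this comparison is how the gland changes at the onset of puberty. Of all 10986 genes tested, 17.1% rose and 15.2% fell in it (limma, adjusted p under 0.05). The median of the 9 log2 differences was 1.21, against -9.62e-05 over all genes tested.

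Cldn8, a claudin of ion-tight epithelia such as the distal nephron, ranged from 5.72 to 9.14 (median 7.65) in the 10 day 21 arrays. The 5 day 42 arrays read 10.13, 9.76, 9.70, 9.54 and 9.59, so that the groups did not overlap. The model difference was 1.99 ± 0.35 (SE), a 3.96-fold rise (adjusted p = 7.25e-05). Cldn7, which lies along the lateral membrane as well as in the junction, ranged from 6.59 to 9.46 (median 7.80) at day 21 and read 9.89, 9.53, 9.75, 9.08 and 9.32 at day 42. One day 21 array, number 8, reached the range of the older glands. Cldn7 rose by 1.59 ± 0.26 (SE; adjusted p = 3.4e-05).

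Cldn3 and Cldn4, which are neighbouring genes with 0 protein-coding genes between them, encode claudins of simple epithelia and rose by similar amounts. Cldn3 ranged from 7.52 to 10.47 at day 21 and from 9.82 to 11.11 at day 42, a rise of 1.57 ± 0.26 (SE; adjusted p = 4.7e-05). Cldn4 ranged from 6.77 to 9.17 at day 21 and from 8.11 to 10.12 at day 42, a rise of 1.43 ± 0.29 (SE; adjusted p = 0.000481). Both sets of ranges overlapped over the pooled arrays. Within batch 1 (6 against 3 arrays) and within batch 2 (4 against 2 arrays) neither gene's groups overlapped, with differences of group means of 1.68 and 1.42 for Cldn3 and 1.69 and 1.03 for Cldn4.

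Ocln and Marveld2, likewise adjacent genes with 0 protein-coding genes between them, rose as well. Ocln ranged from 7.44 to 8.89 (median 8.22) at day 21 and read 9.87, 9.37, 9.50, 9.26 and 9.27 at day 42, with no overlap. It rose by 1.21 ± 0.17 (SE), or 2.32-fold (adjusted p = 5.06e-06). Marveld2 ranged from 6.31 to 7.74 (median 6.96) at day 21, its lowest and median values at day 42 were 7.61 and 7.78, and it rose by 0.79 ± 0.14 (SE; adjusted p = 0.00014).

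The scaffold genes differed from each other. Tjp3 ranged from 7.16 to 8.28 at day 21 and from 7.63 to 8.77 at day 42, and rose by 0.64 ± 0.14 (SE; adjusted p = 0.00118). Tjp1, whose product ZO-1 is also found in endothelium and other cells, ranged from 11.24 to 12.12 at day 21 and from 11.26 to 11.76 at day 42. Its difference was -0.04 with a 95% interval from -0.24 to 0.17 (adjusted p = 0.824), so that larger changes in either direction lay outside the interval.

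Cldn1, known for its part in the skin barrier, went the other way. The day 21 arrays ranged from 9.16 to 10.38 (median 9.51) and the day 42 arrays read 8.05, 7.74, 8.38, 8.64 and 8.40, all below every day 21 array. It fell by 1.38 ± 0.33 (SE) on the log2 scale (adjusted p = 0.00178). In all, 2 genes rose (Cldn8 and Ocln) and 1 fell (Cldn1) without overlap, against 3.22% and 1.78% of all genes tested. Within batch 1 the difference was -1.59 and within batch 2 it was -1.05. With arrays of batch 2 alone, 4 against 2 for this comparison, 4 of the 9 genes were called, all of them higher. The share of all genes called by that smaller fit is not given here, so no loss particular to the 9 genes can be read.

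The rise at day 42 went together with that of the luminal list, of which 12 of 13 genes rose and 0 fell. The basal list moved the same way, with 4 of 7 genes that rose and 0 that fell, and 11 of 12 white adipocyte genes fell. Of all genes tested, 17.1% rose and 15.2% fell. Over the same interval 10 of 11 T cell genes and 8 of 8 B cell genes fell, and the T cell list mean ranged from 6.97 to 10.35 at day 21 and from 6.92 to 8.17 at day 42. To set the tight junction genes against the luminal content of each gland, the luminal list mean of the same array was subtracted. On this scale 0 of the 9 genes rose and 4 fell, against 0.391% and 97.1% of all genes tested, since the luminal mean itself rose by more than nearly every gene. The 4 were Cldn1 (-2.88 ± 0.41, SE; adjusted p = 2.15e-07), Tjp1 (-1.54 ± 0.27, SE; adjusted p = 2.53e-06), Tjp3 (-0.87 ± 0.25, SE; adjusted p = 0.00101) and Marveld2 (-0.72 ± 0.24, SE; adjusted p = 0.00419). Cldn3, Cldn4, Cldn7, Cldn8 and Ocln differed by 0.07, -0.08, 0.08, 0.48 and -0.30, and none of these 5 was called. Cldn8 lay just beyond the threshold (limma, adjusted p = 0.0549). When the luminal mean was instead added to the model as a term, 0 of the 9 genes were called, against 2.73% of all genes tested, and the differences ran from -0.79 (Cldn1) to 0.34 (Ocln) with a median of 0.055. The SE of the Cldn1 value was 0.47, and it carries the wide spread of the Cldn1 lactation arrays given below. The luminal mean itself follows stage, and calls over all genes fell as well under this fit.

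**Figure D2:**
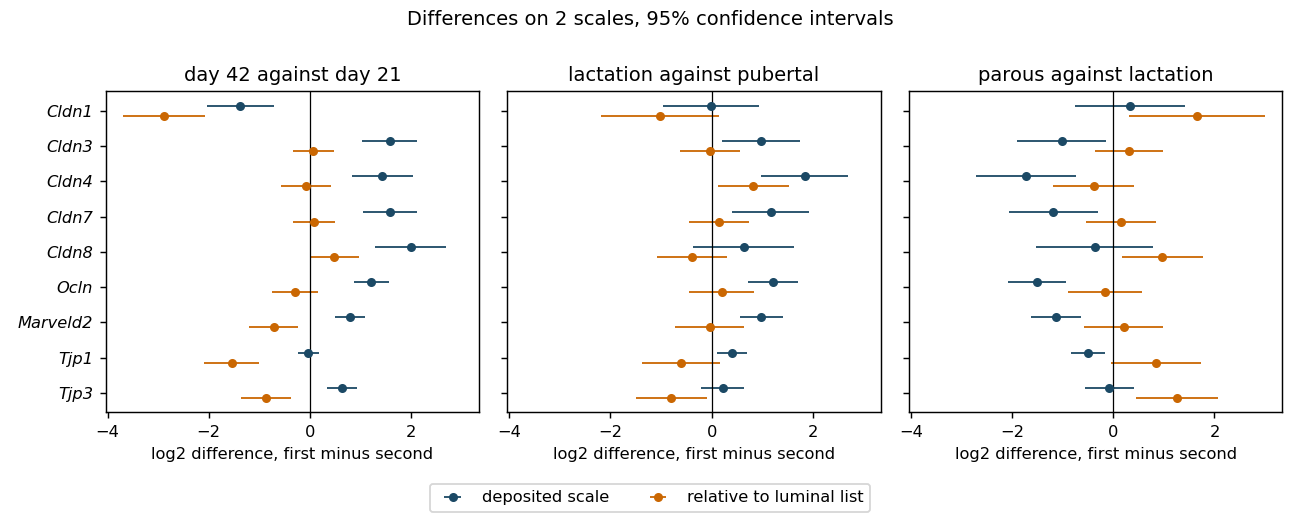
Log2 difference with its 95% confidence interval (horizontal axis) of the 9 genes in 3 comparisons, on the deposited scale (blue) and relative to the mean of 13 luminal genes of the same array (orange). At day 42 against day 21 the claudin genes other than Cldn1 lay above 0 on the deposited scale. On the relative scale Cldn3, Cldn4 and Cldn7 lay near 0, and Cldn8 lay at 0.48 with an interval from -0.008 to 0.97.

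The spread among the 10 glands of day 21 followed the same list. Array 2 had the lowest luminal mean (6.52) and the lowest Cldn3, Cldn4, Cldn7, Cldn8, Ocln, Marveld2 and Tjp3 values (7.52, 6.77, 6.59, 5.72, 7.44, 6.31 and 7.16), and array 8 had the highest luminal mean (9.40) and the highest values of these 7 genes. Array 8 also had the lowest T cell list mean of day 21 (6.97), and array 2 stood at 9.64. The basal list mean was highest in array 8 as well (9.84, against 8.68 in array 2). The basal list was not among those correlated here, so a link particular to luminal genes cannot be read. Across the 10 arrays, Pearson's r with the luminal mean was 0.982 for Cldn7 (Spearman's rho 0.952; permutation p = 2e-05 and 0.0001; adjusted p = 0.00054 and 0.0018 over 36 relations, 9 genes by the luminal, T cell, B cell and white adipocyte lists). Without the 2 arrays farthest from the median luminal mean it was 0.942, and within the 6 arrays of batch 1 it was 0.985. Cldn3, Cldn4, Cldn8 and Ocln gave r from 0.920 to 0.947 (rho from 0.855 to 0.952, largest permutation adjusted p 0.00173 for r and 0.0235 for rho), and without the 2 arrays from 0.789 to 0.914. Tjp3 and Marveld2 gave r of 0.852 and 0.868 (rho of 0.794 for both, permutation adjusted p = 0.006 and 0.0112 for r and 0.0346 for both rho), but without the 2 arrays Marveld2 fell to r = 0.501, so that its relation rests on them. Cldn1 (r = -0.389, rho = 0.103, permutation adjusted p = 0.379 and 0.911) and Tjp1 (r = 0.114, rho = 0.224, permutation adjusted p = 0.844 and 0.691) gave no such relation. With the other lists, no r passed the adjustment, and 4 of the rank correlations did: Cldn8 with the T cell list (rho = -0.782, permutation adjusted p = 0.0367), and Tjp1 with the T cell list (rho = -0.806, permutation adjusted p = 0.0346), the B cell list (rho = -0.818, permutation adjusted p = 0.032) and the white adipocyte list (rho = 0.758, permutation adjusted p = 0.0471). For Tjp1 the r values were -0.712, -0.620 and 0.684 (permutation adjusted p = 0.0735, 0.118 and 0.0789), without the 2 farthest arrays -0.859, -0.759 and 0.686, and within batch 1 -0.672, -0.664 and 0.958. For Cldn8 the r of -0.666 (permutation adjusted p = 0.0789) went to -0.327 without the 2 farthest arrays.

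**Figure D3:**
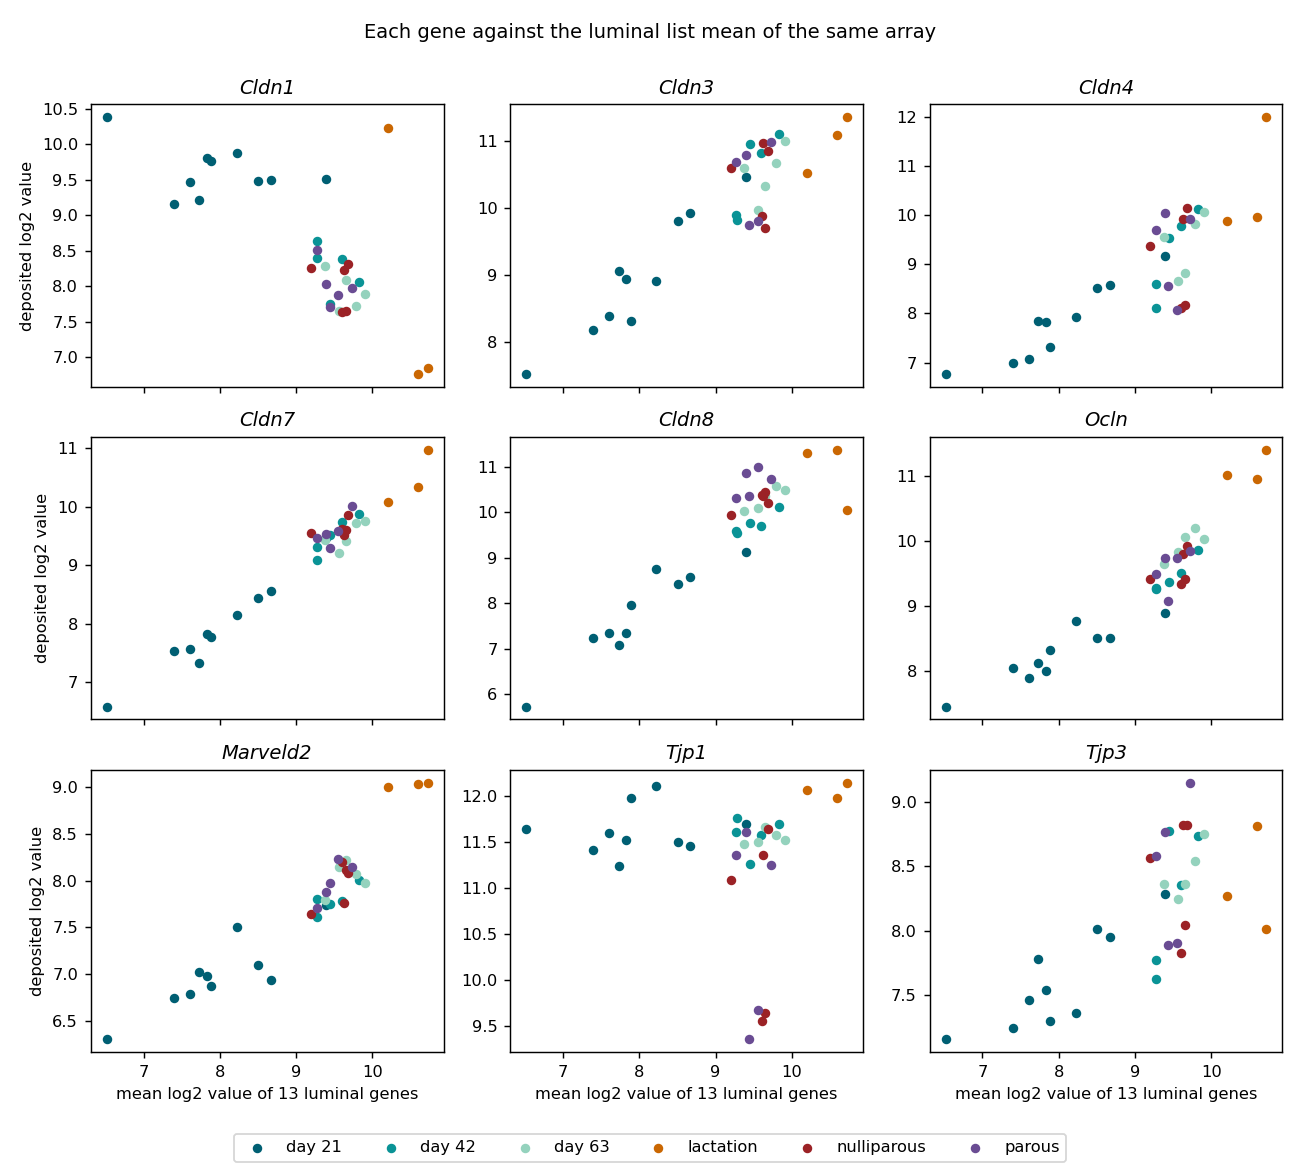
Deposited log2 value of each of the 9 genes (vertical axis, own range per panel) against the mean log2 value of 13 luminal genes in the same array (horizontal axis), 33 arrays coloured by stage. The day 21 arrays spread from 6.52 to 9.40 on the horizontal axis, and Cldn3, Cldn4, Cldn7 and Cldn8 climb along it while Tjp1 and Cldn1 do not.

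From day 42 to day 63, 0 of the 9 genes were called by limma (1.22% of all genes tested were), and 1, Ocln, had an unadjusted p under 0.05. Ocln read 9.65, 10.04, 10.21, 9.83 and 10.07 at day 63, a difference of 0.50 ± 0.20 (SE; adjusted p = 0.216). The largest estimate was that of Cldn8, 0.57 with a 95% interval from -0.24 to 1.39. Between day 63 and the nulliparous adult, 0 genes were called (4.27% of all genes tested were) and 0 had an unadjusted p under 0.05, with differences from -0.29 (Ocln) to 0.31 (Cldn1). Rises as large as those of day 42 lay outside the intervals of both comparisons for Ocln, whose upper bounds were 0.90 and 0.16.

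In lactation against day 63, 6 of the 9 genes rose (Cldn3, Cldn4, Cldn7, Ocln, Tjp1 and Marveld2) and 0 fell, where 23.8% of all genes tested rose and 16.9% fell. Day 63 is the oldest virgin stage that shares a batch with lactation, and 2 of its 5 arrays are in batch 2 with all 3 lactation arrays. The differences come from the model over all arrays, and those of group means within batch 2 alone had the same sign for 8 of the 9 genes (Cldn1, at 0.07, was the other). The median difference of the 9 genes was 0.98, against 0.06 over all genes tested. Cldn7, Ocln, Tjp1 and Marveld2 rose without overlap between the arrays of the groups, as did 18.4% of all genes tested. Lists of other cell types moved in the same comparison: 10 of 10 fibroblast genes, 10 of 12 white adipocyte genes and 3 of 7 basal genes fell and 0 of each rose. The fibroblast list mean ranged from 9.97 to 10.50 in lactation and from 11.82 to 12.04 at day 63, and the white adipocyte list mean from 9.06 to 9.29 and from 10.02 to 10.37. Their part in the rise of the 6 genes was not tested.

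Ocln read 11.01, 11.41 and 10.96 in lactation, each above every other array of the series, and rose by 1.22 ± 0.24 (SE), or 2.32-fold (adjusted p = 0.000229). Marveld2 read 8.99, 9.05 and 9.03 in lactation and 7.79, 7.97, 8.07, 8.15 and 8.21 at day 63, and rose by 0.98 ± 0.21 (SE; adjusted p = 0.0004). The lactating glands differed among themselves by at most 0.05 in Marveld2. Both genes stayed called when any 1 of the 33 arrays was left out.

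The claudin genes were less even. Cldn4 read 9.87, 11.99 and 9.95 in lactation and 9.55, 10.05, 9.81, 8.66 and 8.82 at day 63. It rose by 1.84 ± 0.42 (SE; adjusted p = 0.000877), and within batch 2 the 3 lactation arrays were all above the 2 day 63 arrays. Array 2 held that size, and without it the rise was 1.15 (adjusted p = 0.0241). Cldn7 read 10.09, 10.97 and 10.33 in lactation, against 9.44, 9.77, 9.72, 9.21 and 9.41 at day 63, and rose by 1.16 ± 0.37 (SE; adjusted p = 0.0128). Cldn3 read 10.53, 11.36 and 11.09 in lactation, and rose by 0.98 ± 0.38 (SE; adjusted p = 0.0372), although its arrays overlapped those of day 63. Cldn8 read 11.30, 10.06 and 11.38, lowest in the array where Cldn4 was highest, and its difference of 0.63 was not called (adjusted p = 0.321).

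Tjp1 rose by 0.40 ± 0.14 (SE; adjusted p = 0.0271), with 12.07, 12.15 and 11.98 in lactation and 11.48 to 11.66 at day 63. Tjp3 read 8.27, 8.01 and 8.81, and its difference of 0.22 was not called (adjusted p = 0.415). Without lactation array 2, which had the lowest skeletal muscle list mean of the 3, Cldn3, Cldn7 and Tjp1 were no longer called (0.80, 0.91 and 0.36, adjusted p = 0.154, 0.0922 and 0.0962), and 3 genes remained above the threshold. Tjp1 was also lost without lactation array 1 (0.40, adjusted p = 0.0565) and without day 63 array 4 (0.34, adjusted p = 0.0886), and Cldn3 without lactation array 3 (0.93, adjusted p = 0.0949) and without day 63 array 1, 3 or 4 (0.93, 0.95 and 0.97, adjusted p = 0.0586, 0.0556 and 0.0671). Without the batch term 2 of the 9 genes were called, and the share of all genes under that fit is not given here. With the luminal mean added as a term 3 of the 9 were called (Cldn4, Ocln and Marveld2, at 0.91, 0.63 and 0.50), against 36% of all genes tested.

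Cldn1 in lactation was set by 1 array. It read 10.23 in array 1 and 6.84 and 6.76 in arrays 2 and 3: array 1 stood at the level of day 21, and the other 2 arrays were the lowest of the whole series. Over all 3 arrays the difference from day 63 was -0.01 ± 0.46 (SE; adjusted p = 0.985). The SD of Cldn1 was 1.98 in lactation and from 0.26 to 0.36 at the other stages. The model pools this spread, so the SEs and intervals of Cldn1 in all comparisons carry array 1. Without array 1 the SE of this difference was 0.25. Array 1 was singled out for its own Cldn1 value, so leaving it out describes the data and is no test. Without it Cldn1 fell by 1.16 on the log2 scale (adjusted p = 0.000602), and without array 2 the difference was 0.54 (adjusted p = 0.421). Of the 10986 genes tested, 3 differed more in size between array 1 and the mean of the other 2 than Cldn1, which was higher by 3.43. The genes ahead of it were Ly6g6c, Pank1 and Gstm2 (3.58, 3.52 and 3.43), chosen after their values were seen. Array 1 also had the highest epidermis list mean of the series (6.98, against at most 6.18 in all arrays outside lactation), and its part in the Cldn1 value was not tested.

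Relative to the luminal list mean, which was 10.20, 10.72 and 10.59 in the lactation arrays and 9.38 to 9.91 at day 63, 1 of the 9 genes was higher in lactation and 0 were lower, against 0.537% and 50.2% of all genes tested. The gene was Cldn4, with 0.83 ± 0.35 (SE; adjusted p = 0.0441), and without lactation array 2 it was at 0.24 and no longer called. Of the 13 luminal genes, 5 rose and 0 fell in this comparison.

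From lactation to the parous gland at day 181, 5 of the 9 genes fell (Cldn4, Cldn7, Ocln, Tjp1 and Marveld2) and 0 rose, where 20.7% of all genes tested fell and 12.1% rose. These groups share no batch, so the batch terms rest on other stages, and the comparison shares its lactation arrays with the last one. Ocln read 9.74, 9.85, 9.49, 9.07 and 9.74 in parous glands and fell by 1.50 ± 0.28 (SE) on the log2 scale (adjusted p = 0.000167). Marveld2 read 7.88, 8.15, 7.71, 7.97 and 8.23 and fell by 1.13 ± 0.24 (SE; adjusted p = 0.000569).

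Cldn4 fell by 1.72 ± 0.48 (SE; adjusted p = 0.00699) and Cldn7 by 1.18 ± 0.43 (SE; adjusted p = 0.0328). Cldn3 had -1.02 ± 0.43 (SE; adjusted p = 0.0691), which did not pass the threshold. Cldn7, Ocln, Tjp1 and Marveld2 fell without overlap, as did 14.6% of all genes tested. Without lactation array 2, only Ocln and Marveld2 of the 9 were called (-1.36 and -1.12). Cldn7 was also lost without parous array 1 or 3 (-1.15 and -1.12, adjusted p = 0.0601 and 0.0662) and Tjp1 without parous array 2 (-0.45, adjusted p = 0.0527). Of the marker lists, 7 of 13 luminal genes fell, and 9 of 10 fibroblast, 9 of 12 white adipocyte and 2 of 7 basal genes rose; their part in these differences was not tested. Without lactation array 1, Cldn1 was higher in parous glands by 1.47 (adjusted p = 0.000229), against 0.33 (adjusted p = 0.661) with all arrays. Without lactation array 2 the difference was -0.22 (adjusted p = 0.786), and array 1 was singled out for its Cldn1 value, so the 1.47 is no test. Relative to the luminal list, Cldn1 (1.66, adjusted p = 0.0273), Cldn8 (0.97, adjusted p = 0.0298) and Tjp3 (1.26, adjusted p = 0.00972) were higher in parous glands, where 74.0% of all genes tested were higher and 0.282% lower, and without lactation array 2 none of the 3 was called.

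Tjp1 fell by 0.50 ± 0.17 (SE; adjusted p = 0.0229) in the same comparison, and this value depends on the batch term. In the 3 parous arrays of batch 1 Tjp1 read 11.61, 11.25 and 11.36, and in the 2 of batch 3 it read 9.36 and 9.67. The nulliparous arrays split in the same way, with 11.65, 11.36 and 11.09 in batch 1 and 9.65 and 9.56 in batch 3. The model put batch 3 at -1.83 relative to batch 1 for Tjp1, and 91.4% of the genes tested had a smaller batch 3 term in size. For Cldn4 the batch 3 term was -1.63 and the batch 2 term -1.03, which 97.6% of the genes tested fell short of in size, and for Cldn3 they were -1.04 and -0.85. Cldn7, Cldn8, Ocln and Marveld2 had batch 3 terms between -0.31 and 0.26. Batch 3, the RNA kit and the fattier glands cannot be told apart.

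Parous and nulliparous glands of the same age did not differ in a called way in any of the 9 genes (limma), 0 had an unadjusted p under 0.05, and 0.0182% of all genes tested were called. The differences ran from -0.05 (Cldn7) to 0.38 (Cldn8). For Ocln the difference was 0.00 with a 95% interval from -0.40 to 0.41, and for Cldn3 it was 0.00 with an interval from -0.62 to 0.63. The widest interval was that of Cldn8, from -0.43 to 1.20.

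Over all 6 stages, 8 of the 9 genes differed by limma's moderated F test, as did 65.9% of all genes tested. Tjp1 did not (adjusted p = 0.12), and Ocln had the highest rank of the 9, number 144 of 10986. With the batch terms removed, lactation stood first in the order of stages for 8 of the 9 genes and last for Cldn1 (share of all genes not given here). For Tjp3 the lead was 0.08 ± 0.24 (SE), and its deposited mean was 8.36 in lactation and 8.45 at day 63. Cldn1 was last by 0.01 ± 0.46 (SE). Day 21 stood last for 7 genes, second for Tjp1 and first for Cldn1. Of the 45 steps between neighbouring stages in these orders, 14 were called, against 7.59% of such steps over all genes tested. For Cldn3, Cldn4, Cldn7, Ocln and Marveld2 the called steps were those into lactation and out of day 21, and the 4 stages between (day 42, day 63, nulliparous and parous) did not differ from their neighbours beyond their spread. For Cldn8 and Tjp3 only the step out of day 21 was called, for Cldn1 only the step from day 21 to day 42, and for Tjp1 only the step from lactation to day 21 (0.33 ± 0.13, SE; adjusted p = 0.0334).

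The genes most like each of the 9 were sought by Pearson's r over the 33 arrays after the batch terms were subtracted. These values describe arrays that share stages and luminal content. Cldn3 and Cldn7 were each among the nearest genes of the other (r = 0.982), beside the serine protease gene Prss8 (0.983, with Cldn3) and the protease inhibitor gene Spint1 (0.979 and 0.983), both of which are in the luminal list. Marveld2 was nearest to its chromosomal neighbour Ocln (0.976). Ocln was nearest to Cdcp1 (0.980), Arhgef5 (0.977) and the junction adhesion gene Igsf5 (0.976). Cldn4 was nearest to the collagen receptor gene Ddr1 (0.963), Cldn8 to the mucin gene Muc15 (0.980) and Tjp3 to Spint2 (0.951). Tjp1 and Cldn1 had looser neighbours of another kind: Syne2 (0.881), the insulin receptor gene Insr (0.864) and Serinc1 (0.846) for Tjp1, and Sncaip (0.860), the myelin and lymphocyte gene Mal (0.859) and Arhgap31 (0.854) for Cldn1.

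The other claudin genes were mostly low, and 6 of the 18 matched passed the filter. At day 42 Cldn6, known from embryonic epithelia, rose by 1.23 (adjusted p = 0.000676), while Cldn19 and Cldn11, claudins of myelinating cells, and the endothelial Cldn5 fell by 1.15, 0.44 and 0.72 on the log2 scale. In lactation Cldn6 rose by 1.49 (adjusted p = 0.00214) and Cldn5 fell by 1.00 and Cldn11 by 0.48. The Cldn6 groups overlapped, with 8.03 to 10.19 in lactation and 7.58 to 8.81 at day 63. In parous against lactating glands Cldn6 fell by 2.22 on the log2 scale (adjusted p = 0.000253), Cldn12 fell by 0.49 and Cldn5 rose by 0.78. These groups share no batch, so the values depend on the batch terms. Cldn5 ranged from 7.60 to 10.61 (median 7.88) in parous glands and from 7.35 to 7.98 in lactation. Cldn12 ranged from 7.60 to 8.93 and from 9.04 to 9.48. Of the endothelium list, 0 of 9 genes were called in parous against lactating glands. In these 3 comparisons 1, 1 and 1 of the 6 rose and 3, 2 and 2 fell, the 3 including Cldn19. Of all genes tested, 17.1%, 23.8% and 12.1% rose and 15.2%, 16.9% and 20.7% fell, and these shares also apply to the lists that follow. With 6 genes the counts are not read as a result about the other claudins.

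Of 10 other strand, adhesion and tricellular genes, 6 rose and 1 fell at day 42, 7 rose and 2 fell in lactation, and 1 rose and 7 fell in parous against lactating glands, with medians of 1.00, 0.85 and -1.11. At day 42 Igsf5 rose by 1.48 (adjusted p = 3.06e-07), and the tricellular gene Ildr1 rose by 1.04 (adjusted p = 5.2e-06). In lactation F11r, which encodes the junctional adhesion molecule JAM-A, rose by 1.02 (adjusted p = 3.18e-07), the occludin relative Marveld3 by 1.18 (adjusted p = 1.18e-05), and Lsr, whose product recruits tricellulin to corners, by 1.31 (adjusted p = 0.000524). The same 3 genes fell by 1.33, 1.39 and 1.64 on the log2 scale in parous against lactating glands. Marveld1 was the 1 gene of this list called between day 42 and day 63, where it fell by 0.50 (adjusted p = 0.0491).

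Of 20 plaque genes, which encode scaffold and polarity proteins on the inner side of the junction, 9 rose and 2 fell at day 42, 6 rose and 1 fell in lactation, and 1 rose and 9 fell in parous against lactating glands, with medians of 0.22, 0.23 and -0.27, where the medians of all genes tested were -9.62e-05, 0.06 and -0.06. The 6 that rose in lactation are a share near the 23.8% of all genes tested. The cingulin gene Cgn rose by 1.22 at day 42 (adjusted p = 1.61e-05) and its relative Cgnl1 by 0.94. The polarity genes Prkcz and Pard6b rose by 0.77 and 1.38 in lactation (adjusted p = 1.84e-06 and 0.00047) and fell by 0.67 and 1.42 on the log2 scale in parous glands, while the scaffold gene Mpdz fell by 0.85 in lactation. Pard6b had a lowest value of 7.81, a median of 7.82 and a highest of 10.02 in lactation (SD 1.28, n = 3), and ranged from 7.18 to 7.80 at day 63. Both of its differences therefore lean on 1 lactation array. The Prkcz fall depends on the batch terms, with group means of 8.22 in parous glands and 8.55 in lactation. Its arrays overlapped, from 7.93 to 8.52 in parous glands and from 8.45 to 8.60 in lactation. Of 18 adherens junction and desmosome genes, 13 rose and 0 fell at day 42, 8 rose and 1 fell in lactation, and 0 rose and 9 fell in parous against lactating glands. Among them the desmoglein gene Dsg2 rose by 1.31 in lactation (adjusted p = 1.39e-06) and fell by 1.48 afterwards, and the β-catenin gene Ctnnb1 rose by 0.69 (adjusted p = 1.76e-08) and fell by 0.87. Both falls depend on the batch terms: in parous glands Dsg2 ranged from 7.32 to 9.61 and Ctnnb1 from 10.30 to 11.79.

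Transcription factors that act on epithelial junction genes were followed through 9 tested regulators. At day 42, 5 rose and 1 fell: the epithelial activators Grhl1, Elf3 and Ehf rose by 1.28, 1.42 and 1.77 (adjusted p = 3.04e-06, 4.83e-05 and 0.000304), and the repressor gene Zeb2 fell by 0.50 (adjusted p = 0.000237). The other 2 that rose were Grhl2 (1.53) and Twist2 (0.58), a repressor gene of mesenchymal cells, both named after their values were seen. In lactation 2 rose and 3 fell, where 23.8% of all genes tested rose and 16.9% fell. The 2 that rose are a share near that of all genes. Klf5 rose by 1.12 (adjusted p = 2.75e-05) and Grhl1, named after its value was seen, by 1.15, and the repressor genes Zeb1, Zeb2 and Twist2 fell by 1.14, 0.99 and 1.70 on the log2 scale (adjusted p = 1.25e-06, 1.8e-06 and 1.34e-05). In parous against lactating glands 3 were called higher, Zeb1, Zeb2 and Twist2 (by 1.05, 0.72 and 0.93), and 2 lower, Klf5 (by 1.00) and, named after its value was seen, Elf3 (by 1.15). These values depend on the batch terms. Of all genes tested, 12.1% were higher and 20.7% lower, and the 2 regulators called lower are a share near the latter. The Zeb2 group means were nearly equal, 10.04 in parous glands and 10.05 in lactation, and the parous mean was 10.57 in the 3 arrays of batch 1 and 9.24 in the 2 of batch 3. The Zeb1 group means were 9.27 and 8.78, and those of Twist2 8.49 and 7.01. The stromal lists moved too: in lactation 10 of 10 fibroblast and 10 of 12 white adipocyte genes fell, and afterwards 9 and 9 rose. At day 42, 2 of 10 fibroblast genes rose and 11 of 12 white adipocyte genes fell, as did 10 of 11 T cell and 8 of 8 B cell genes. Their part in the repressor values was not tested.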

How the data were processed

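Total RNA of rat mammary glands was hybridised to 33 Affymetrix arrays. The deposited log2 values of 36685 probe sets were made by the authors with Affymetrix Expression Console and RMA, per the submitters' processing notes (versions not given in the sources used here). RMA corrects background, normalizes between arrays and summarises probes; it can compress high and low values. The number of arrays limits the precision. Labels state 5 animals per stage in one place and 10 pre-pubertal in another, and where arrays are not separate animals the p-values measure only the spread between arrays.

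Of the probe sets, 18511 had 1 gene symbol. The tests covered the 10986 genes with values above 7.645, the median of those probe sets, in 3 or more arrays. One model per gene (limma 3.58.1, R 4.3.3) with 6 stages and 3 batches over all arrays gave moderated two-sided tests with an intensity trend and 25 residual degrees of freedom. A gene was called at a Benjamini-Hochberg adjusted p under 0.05 over all genes tested; "rose" and "fell" are used of called genes. The script was tested on simulated data. The relative scale subtracts each array's mean over 13 luminal genes. The 36 day 21 correlations used 100000 permutations (two-sided).

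Genes named are the 9, up to 4 called genes of smallest adjusted p per junction or regulator list and comparison, the 3 genes of highest r per gene, and tissue checks. Genes outside this rule are marked as named after their values were seen. The members, lists and rule were chosen with earlier results of these data known. Comparisons that share arrays are not independent. Alternatives covered the batch term, filter, normalization, probe set rule, variance trend, array weights, arrays entering, single batches, list covariates, the basal list and each array left out. The within-batch differences, the motif search, the day 21 correlations and the gaps between lactation arrays were added after the data were seen.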

Additional observations from a re-analysis of the deposited data

How the results depend on the processing

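Directions of called members were kept in every single-array omission run (0 of 3564 member differences reversed). Counts of members called ranged, with 1 array left out, from 3 to 6 for lactation against day 63 and from 2 to 7 for parous against lactation, and relative to the luminal list from 0 to 4 for each of these comparisons. The lowest absolute counts came without lactation array 2. With all arrays they were 6, 5, 1 and 3. For most of the settings in this section the share of all genes called is not given here. A change in count alone is therefore no result about the 9 genes. Without the batch term lactation gave 2, parous against lactation 3, the called steps between neighbouring stages 9 (14 with it), and on the relative scale 0 and 1. Batch as a random block and leaving out batch 3 each gave 0 for lactation on the relative scale. Repeated quantile normalization gave 3 for parous against lactation and 0 for lactation on the relative scale. A filter at the 75th percentile gave 2 at day 42 on the relative scale, where 7 of the 9 were tested. Batch 1 alone gave 2 at day 42 on the relative scale (4 with all arrays), and batch 2 alone gave 4 at day 42 (8 with all arrays) and 2 for lactation on the relative scale. Only the groups compared gave 3 for lactation on the relative scale.

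With the luminal list as a covariate the counts were 0 at day 42, 1 at day 63, 3 in lactation and 3 for parous against lactation, and Cldn3 in lactation was at -0.039, Cldn7 in parous glands at 0.13 and Cldn8 at 1.20. With the T cell list as a covariate they were 1 at day 63 and 3 for parous against lactation, and on the relative scale 2 at day 42, 2 in lactation and 1 for parous against lactation. Array weights gave 1 at day 63. On the relative scale their estimation stopped before converging, and the counts of 6 at day 63, 4 for nulliparous, 0 for lactation, 0 for parous against lactation, 2 for parous against nulliparous and the Cldn1 value of -0.97 for parous against lactation are not relied on.

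Relative to the basal list in place of the luminal list, which by construction asks another question, counts were 7 at day 42, 6 in lactation and 6 for parous against lactation. Signs turned for Cldn4 (0.58) and Ocln (0.36) at day 42, for Cldn3 (1.24), Tjp1 (0.66) and Marveld2 (1.23) in lactation, and for Cldn3 (-1.28), Cldn7 (-1.44), Cldn8 (-0.63), Tjp1 (-0.76), Tjp3 (-0.34) and Marveld2 (-1.40) in parous glands. The cause of the other changes was not tested. A sign change that was called under neither setting was not counted as reversed. No paired analysis was possible because the labels give no replicate numbers shared between stages.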
